A study of Mus musculus with 16 samples.

Results

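R-loops that were called in wild-type NIH/3T3 cells and had no counterpart in any other list were taken here as 1 set of regions. The members were chosen by peak calls alone. Peaks of the 2 WT_IP_RNaseR- lists were merged, and a merged region on chromosomes 1 to 19 or X was kept when it overlapped no peak (1 bp or more) of the 4 KO lists and no peak of the 2 WT_IP_RNaseR+ lists. Of 5312 WT regions, 2806 met this rule (52.8%), 2469 were shared with at least 1 KO list and 37 were met only by a WT_IP_RNaseR+ peak. The kept regions are called absent regions below and the second class shared regions.

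The libraries came from DNA:RNA immunoprecipitation sequencing (DRIP-seq) of NIH/3T3 cells, an established mouse embryonic fibroblast line. The cells were either WT or carried a CRISPR-Cas9 knockout of Xpo4 (KO), which encodes exportin 4, a receptor for export out of the nucleus, and both copies had been edited alike. DNA of each was either left untreated (RNaseR-) or digested with RNase R (RNaseR+), which gives 4 groups of 2 replicates with a peak list each. No label says that replicates came from separate cultures, so their spread may be technical. The knockout and the history of the edited line cannot be told apart.

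An R-loop forms when RNA pairs with 1 strand of the DNA duplex and displaces the other. The antibody S9.6 binds the DNA:RNA hybrid, and DRIP-seq reads out the restriction fragments that it pulls down. RNase R degrades linear RNA from its 3′ end and spares circles. R-loops are known from gene promoters and ends, from long transcribed genes and from repeats such as ribosomal DNA, and unresolved ones are a known source of DNA breaks. Exportin 4 was studied in this series as a carrier of circular RNA out of the nucleus.

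The sequences of 6 of the highest absent regions called in both WT replicates are shown because they differ so much in kind. Each is 200 bases around the replicate 1 summit, from the GRCm38 reference (RefSeq), plus strand, 5′ to 3′. Capitals mark the cut sites of the 4 enzymes used on the DNA, TTAA (MseI), CTNAG (DdeI), AGCT (AluI) and GATC (MboI), which read the same on both strands.
Hbb-bs coding exon, chr7:103827460-103827659: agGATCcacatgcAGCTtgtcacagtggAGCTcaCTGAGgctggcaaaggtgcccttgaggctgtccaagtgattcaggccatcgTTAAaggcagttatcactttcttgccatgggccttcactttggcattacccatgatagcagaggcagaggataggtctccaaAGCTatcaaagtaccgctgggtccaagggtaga
outside genes, chrX:94882111-94882310: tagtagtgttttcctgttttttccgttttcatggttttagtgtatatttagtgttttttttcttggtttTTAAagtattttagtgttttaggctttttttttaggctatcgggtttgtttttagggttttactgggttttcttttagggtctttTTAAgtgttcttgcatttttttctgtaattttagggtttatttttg
outside genes, chr15:88575401-88575600: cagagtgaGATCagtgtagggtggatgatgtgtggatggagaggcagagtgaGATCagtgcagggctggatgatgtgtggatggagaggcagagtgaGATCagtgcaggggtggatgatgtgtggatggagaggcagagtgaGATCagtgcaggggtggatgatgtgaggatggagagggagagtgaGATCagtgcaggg
outside genes, chr6:101993755-101993954: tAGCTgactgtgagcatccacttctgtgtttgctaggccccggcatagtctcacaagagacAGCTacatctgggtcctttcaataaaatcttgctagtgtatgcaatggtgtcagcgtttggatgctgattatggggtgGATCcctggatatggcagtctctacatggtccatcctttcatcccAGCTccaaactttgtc
outside genes, chr14:4969009-4969208: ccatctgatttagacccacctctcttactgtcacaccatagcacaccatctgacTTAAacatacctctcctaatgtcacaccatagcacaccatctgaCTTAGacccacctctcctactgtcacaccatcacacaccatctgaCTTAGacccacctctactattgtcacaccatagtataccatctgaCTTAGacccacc
March1 intron, chr8:66454002-66454201: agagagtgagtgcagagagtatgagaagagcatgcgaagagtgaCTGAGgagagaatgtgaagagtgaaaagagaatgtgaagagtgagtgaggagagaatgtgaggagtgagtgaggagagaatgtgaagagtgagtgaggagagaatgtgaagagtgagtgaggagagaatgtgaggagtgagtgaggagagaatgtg

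The first sequence lies within a coding exon of the beta-globin gene Hbb-bs and held 6 cut sites. The second, from chromosome X, was 59.5% T and had 2 sites. Those from chromosomes 15, 14 and 8 were tandem repeats: the window matched itself at 85.8% of bases when shifted by 45 bp, at 90% when shifted by 90 bp and at 81.2% when shifted by 24 bp, in that order. The chromosome 8 window was 82% purine on the plus strand and kept 1 cut site. For the chromosome 6 window the best shift matched only 36.1% of bases, but its 31-mers occurred a median of 12345 times in the genome, which marks a dispersed repeat of very high copy number.

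Replication was sparse in the set. Of the 2806 absent regions, 1875 were called in replicate 1 only, 796 in replicate 2 only and 135 in both (4.81%, 95% Wilson interval 4.08% to 5.67%, counting error only). Over all WT regions the share called in both was 11.5%, and in shared regions it was 19% (470 of 2469). The 2 WT lists differ in size, with 3885 peaks in replicate 1 and 2171 in replicate 2, and absent regions held 2010 and 931 of them. The KO lists were far longer (26219 and 32031 peaks without RNase R, 6372 and 5996 with it), so a WT region had many more peaks to meet in KO than in the WT_IP_RNaseR+ lists of 271 and 352 peaks.

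Per list, the share of peaks found in the other WT replicate was 6.72% in absent and 26.6% in shared regions for replicate 1, and 14.5% against 41.1% for replicate 2. Absent regions were lower in both lists, by 23.2 percentage points on average (exact permutation test over lists, two-sided, p = 0.333, n = 2 a side). The absent and shared values come from the same 2 WT lists, and this test leaves that pairing out. A region became shared by recurring in a KO list, and absent by meeting no KO or RNase R+ peak. Recurrence in the other WT list is therefore not independent of the rule, which favours this order. With 2 values against 2, p = 0.333 is the smallest value that the exact permutation test can give. Benjamini-Hochberg adjustment over 6 measures leaves it there, so none of the measures below could pass a threshold. An exact sign-flip test of the paired differences gave p = 0.5, the smallest that it allows. Among peaks of fold 6 to 8, 5.69% of absent and 18.6% of shared peaks in replicate 1, and 14.5% and 31% in replicate 2, were found in the other list. The order was the same in the other fold classes under 20 and turned at fold 20 or more, where the 2 absent peaks of each list were both found in the other list, against 95.2% and 95.6% of shared peaks.

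The levels chose the members in part and are given as a description. Fold enrichment, as the caller gives it, divides the number of fragments at the summit by the number expected at that place, after adding 1 to both. In absent regions it ran from 4.31 to 37.6 in replicate 1 (median 6.08) and from 4.4 to 33.6 in replicate 2 (median 6.72), and in shared regions the medians were 6.76 and 7.34 with maxima of 122 and 125. A median absent peak rested on 9 fragments at its summit in replicate 1 and 10 in replicate 2, and the lowest on 6 and 7. A height of 9 has an exact 95% Poisson interval of 4.12 to 17.1 fragments, so most members stood only a few fragments above what the caller could accept. Peaks with a fold of 10 or more numbered 60 of 2010 and 48 of 931.

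The share of WT peaks that lay in absent regions was lowest among the strong peaks. It was 56.8% in replicate 1 and 44.0% in replicate 2 for peaks under fold 6, 55.4% and 50.2% at fold 6 to 8, and 28.2% and 27.9% for peaks of fold 10 to 20. Of the peaks at fold 20 or more, 2 of 44 and 2 of 48 were absent, all of them on the 2 adult alpha-globin genes. Where the expected level was that of the background, the lowest fold called was 4.33 and 4.22 in the KO_IP_RNaseR- lists. In the WT_IP_RNaseR- lists it was 4.73 and 5.37. Of the absent peaks, 2009 of 2010 and 931 of 931 lay at or above 4.33. The WT limits were the higher, so this was largely set in advance. Folds with 1 added to both terms do not compare directly between lists of unlike background level. Whether a KO list could have called the members was not tested.

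**Figure D1:**
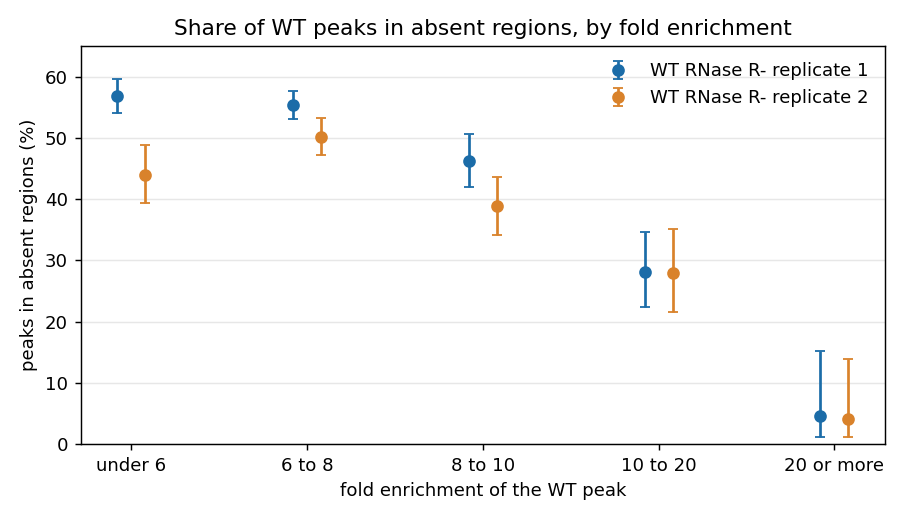
Share of WT_IP_RNaseR- peaks that lie in absent regions (vertical axis, percent) by the fold enrichment of the peak (horizontal axis), for replicate 1 (blue) and replicate 2 (orange). Bars are 95% Wilson intervals and cover counting error only. The share is 56.8% and 44.0% under fold 6 and 4.55% and 4.17% at fold 20 or more.

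The strongest absent regions were on globin genes, which encode the chains of hemoglobin and are markers of red blood cells, not of fibroblasts. Of the 10 regions called in both replicates with the highest lower fold, 4 lay on Hba-a1, Hba-a2 and Hbb-bs. The region on Hba-a2 (chr11:32296488-32297294) had a fold of 31.2 in replicate 1 and 33.6 in replicate 2, with 46 and 49 fragments at the summit. The region on its neighbour Hba-a1 (chr11:32283913-32284476) had folds of 37.6 and 26.0 and heights of 62 and 58. Both replicates were high at both genes, which the ranking by the lower fold required. The 95% Poisson intervals of the heights overlapped between replicates (33.7 to 61.4 against 36.3 to 64.8 on Hba-a2).

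On Hbb-bs 2 separate regions were called. That over the coding exon shown above (chr7:103827440-103827923) had folds of 16.9 and 16.8 with 24 fragments in each replicate. That over the last exon (chr7:103826532-103826817) had folds of 18.9 and 15.9 with 27 and 35 fragments. Both lists left most of the long intron between these regions without a peak. The folds of the lists were close at each region, but the ranking by the lower fold chose regions high in both. The replicate 2 peak over the coding exon was the wider, at 483 bp against 251 bp in replicate 1, and also crossed a short intron and the exon upstream of it.

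Most of each globin peak was annotated exon, though the alpha-globin peaks also ran across an intron. On Hbb-bs, 243 of 251 bp and 260 of 285 bp of the replicate 1 peaks were annotated exon, and in replicate 2 the exon share was 86.5% and 90.9%. On Hba-a1 and Hba-a2 it ran from 73.2% to 82.2% over the 4 peaks, whose summits all fell in the last exon. Over all 2806 absent regions, 58 (2.07%) were exonic over 50% or more of their length. Of these, 5 were called in both replicates, the 4 globin regions and 1 at the overlapping genes Gm33782 and Gm48427 on chromosome 10 (folds 8.35 and 6.14).

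**Figure D2:**
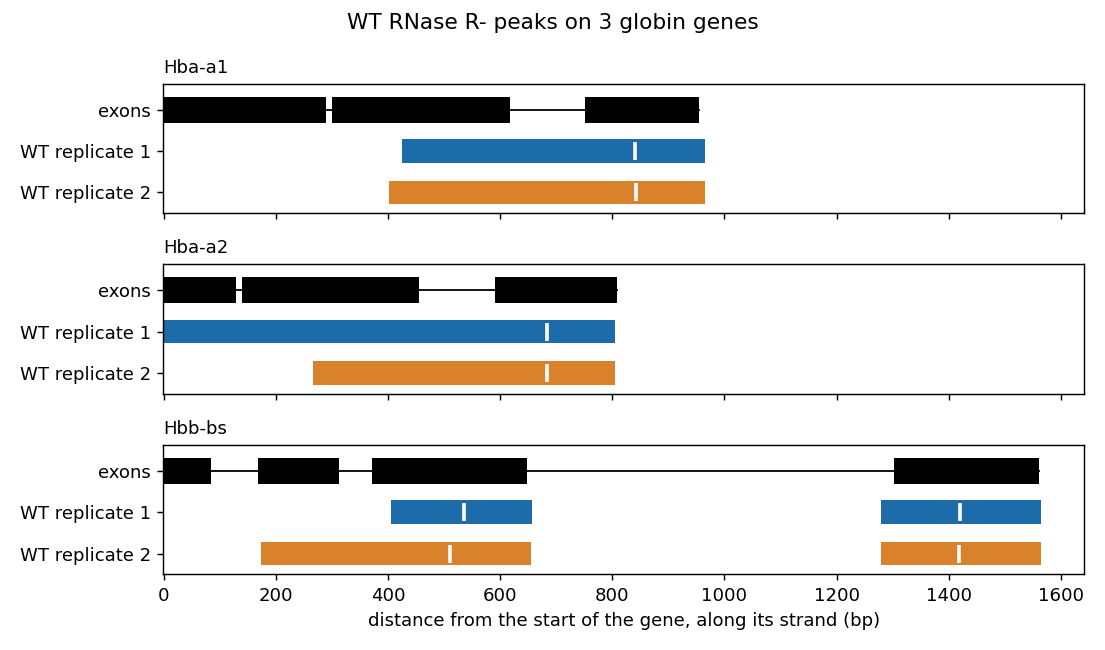
Peaks of WT_IP_RNaseR- replicate 1 (blue) and replicate 2 (orange) on Hba-a1, Hba-a2 and Hbb-bs, with the exons of all annotated transcripts (black boxes on a line for the gene). The horizontal axis is the distance from the start of the gene along its strand in bp, and white ticks are the summits. The peaks on Hbb-bs cover exons and leave most of the long intron empty, while those on Hba-a1 and Hba-a2 run across an intron.

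None of the 6 other lists had a peak on the 3 globin genes. The nearest KO_IP_RNaseR- peaks ended 235 and 241 bp before Hba-a1, and around Hbb-bs the nearest peak of any KO list was 89688 bp away. The paralogs share much of their sequence: only 11.1% of the 31-mers around the Hba-a1 summit and 11.5% around that of Hba-a2 occur once in the genome. On Hbb-bs the share was 0% around the replicate 1 summit of the coding exon and 66.7% at the last exon. Whether the sequenced read pairs told these copies apart was not tested. A list of 19 red blood cell lineage genes was looked up after these values were seen. Of these, 3 held an absent region (15.8%, against 4.04% of all protein-coding genes), the 3 named. The list was drawn up with these 3 known, so the share is no measure of the lineage. The others, among them Hbb-bt (beta-globin), Alas2 (heme synthesis), Slc4a1 (the anion exchanger of red cells) and Gata1 (a lineage factor), held none. The part of red blood cell material in these peaks was not tested.

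The remaining 6 of the 10 highest regions lay in repeats. A pair on chromosome X outside genes (chrX:94882050-94882362 and chrX:94972444-94972756) was 98.4% identical over 314 aligned positions and 90.4 kb apart. The first had folds of 19.6 and 16.1 and the second 10.8 and 10.1, and their 31-mers had a median of 22 and 20 copies in the genome. The tandem repeat on chromosome 15 (chr15:88575142-88576806) had folds of 16.2 and 15.4. Its 1665 bp made it the longest of all absent regions.

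The dispersed repeat on chromosome 6 (chr6:101993574-101993938) had folds of 15.9 and 14.9, and the tandem repeat on chromosome 14 (chr14:4968780-4969602) 12.8 and 14.8. The region on chromosome 8 (chr8:66453951-66454325) lay in an intron of March1, the gene of a membrane-bound ubiquitin ligase, with folds of 13.1 and 10.7. A second absent region called in both replicates lay in another part of March1, at folds of 5.31 and 6.04, with every 31-mer around its summits single-copy. Of the 135 regions called in both replicates, 62 (45.9%) had under 50% single-copy 31-mers around the replicate 1 summit and 11 (8.15%) had single-copy sequence throughout. In replicate 1, 30.1% of all absent peaks and 68% of shared peaks called in both replicates had under 50%. Single-copy sequence throughout was found in 14.9% and 4% of them.

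**Figure D3:**
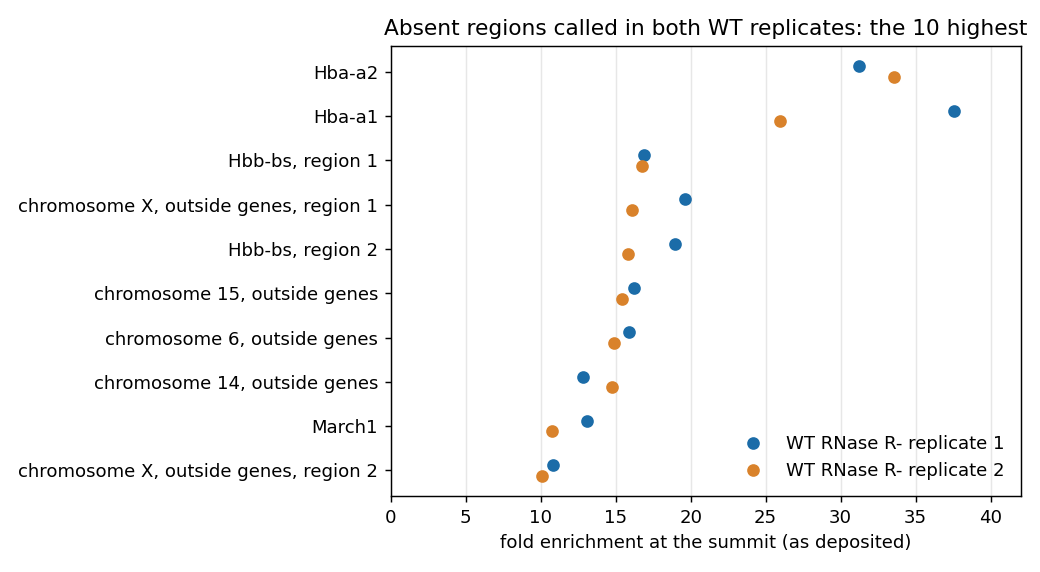
Fold enrichment at the summit, as deposited (horizontal axis), of the 10 absent regions with the highest lower fold among those called in both WT replicates. Each row is a region named by its gene or chromosome, with replicate 1 in blue and replicate 2 in orange. The alpha-globin genes lie at 26.0 to 37.6 and the other regions between 10.1 and 19.6.

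Below these the 135 regions called in both replicates were modest. Their lower fold had a median of 6.43, and 10 of them reached 10. The summits of the replicates were a median of 57 bp apart and within 50 bp in 60 regions. They overlapped 77 annotated genes (0.143% of all). By the replicate 1 summit, 63 lay outside genes, 59 in introns, 11 within 1000 bp of a transcript start and 2 in other exons. Measured from the edge of the region in place of the summit, the protein-coding genes with such a region within 1000 bp of a transcript start were, apart from the globin genes, Lepr, the leptin receptor (folds 9.46 and 7.17, 953 bp from the start), and Fam240a (5.41 and 6.72, 984 bp). The nearer summit of each lay 1034 and 1127 bp from a start and is not among the 11. An intron of Dlgap2, a scaffold gene of synapses, held the region with the most fragments, 76 and 73 at folds of 7.88 and 8.97, over an expected level of 8.78 and 7.25 fragments.

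Regions called in 1 replicate only reached lower folds. In replicate 1 the highest was 13.9, in an intron of Galnt7 (an enzyme that starts O-linked sugar chains on proteins) on 20 fragments. The next 4 were at 12.8 with 18 fragments each, in introns of Usp49 (a deubiquitinase gene, here overlapped by Gm20517) and Trim24 (a transcription cofactor gene) and outside genes on chromosomes 10 and 7. In replicate 2 the 5 highest ran from 12.3 to 15.8, all outside genes, on chromosomes 16, 2, 18, 12 and 6. Of these 10 regions, 9 had under 50% single-copy 31-mers, and that on chromosome 10 had 96.7%.

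Around the summits (300 bp), absent peaks differed from shared peaks in the sequence features that the rule did not use. Absent peaks were the more single-copy: a mean of 66.3% of 31-mers occurred once in the genome against 52.6% in shared peaks of replicate 1, and 62.8% against 47.2% in replicate 2. The difference averaged 14.6 percentage points (exact permutation test, p = 0.333, n = 2 a side, from the same 2 lists). Median GC content was 41.7% against 43.0% and 42.3% against 43.7%, lower in absent peaks by 1.33 points in each list (exact permutation test, p = 0.333, n = 2 a side). The median over 300 bp windows of the genome was 41.7%, the value of the absent peaks of replicate 1.

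The enzymes had more sites in absent peaks, with a median of 4 cut sites against 3 in shared peaks of both lists (exact permutation test, p = 0.333, n = 2 a side) and 5 in genome windows. Up to 2 sites were found in 25.6% of absent and 42.7% of shared peaks in replicate 1 and in 27.3% and 43.6% in replicate 2, beside 9.88% of genome windows. Both classes were thus poorer in sites than the genome, shared regions more so. KO_IP_RNaseR- peaks outside WT regions were close to the shared class, at 42.2% and 44.5%.

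Runs of purines or pyrimidines showed the widest gap of the features described. A run of 40 bp or more was found within 300 bp around the summit in 27.3% of absent and 48.7% of shared peaks in replicate 1, in 25.7% and 43.1% in replicate 2, and in 2.59% of genome windows. KO_IP_RNaseR- peaks outside WT regions held such a run in 47.2% and 47.4%. They were thus close to the shared class, which was itself chosen by overlap with KO lists. Such runs were added as a feature after values were seen and were not tested. Among peaks called in 1 replicate only the shares were 27.8% against 56.5% and 26.9% against 53.8%. Among peaks called in both the gap was narrower, at 19.3% against 27.2% and 18.5% against 27.8%. In peaks without such a run, mean site numbers were still 4.34 against 3.38 in replicate 1 and 4.22 against 3.32 in replicate 2.

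**Figure D4:**
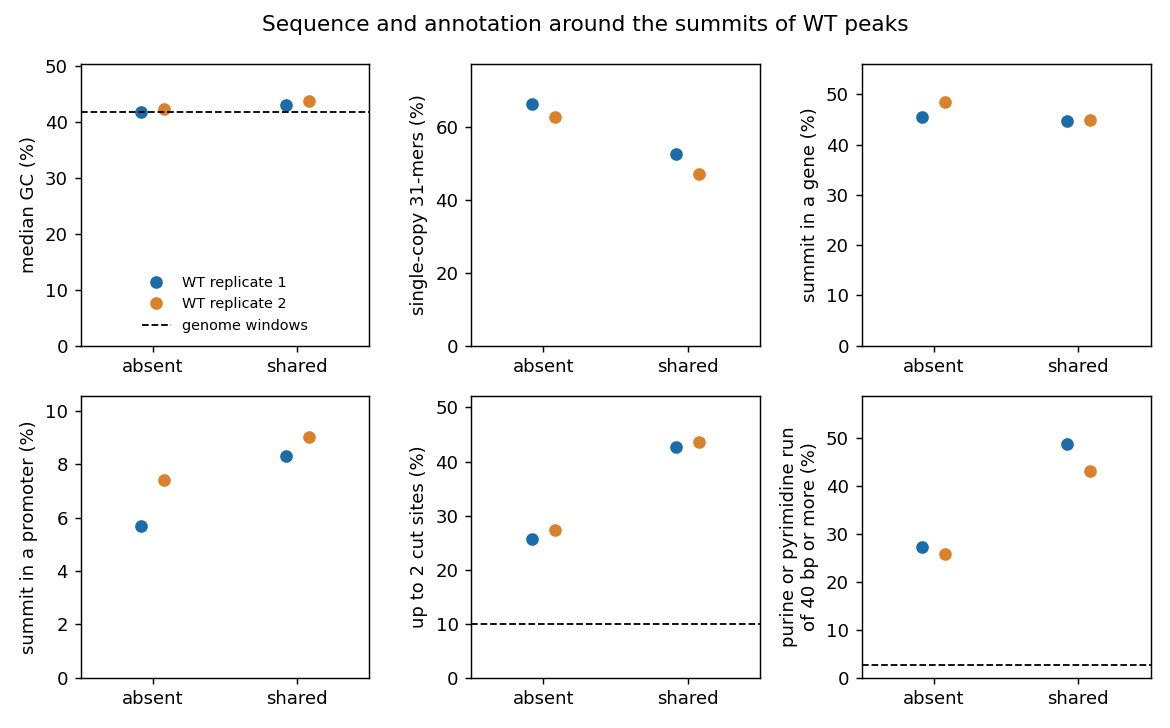
Values for peaks in absent and shared regions (horizontal axis), with 1 point for each WT_IP_RNaseR- list (blue replicate 1, orange replicate 2) and, where drawn, a dashed line for 300 bp windows of the genome. Panels give the median GC content, mean share of single-copy 31-mers, shares of summits in a gene and within 1000 bp of a transcript start, and shares of 300 bp summit windows with up to 2 cut sites or with a purine or pyrimidine run of 40 bp or more. The points of the classes do not overlap in any panel, and the narrowest gap is that for genes.

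Gene position set the classes apart less. The summit lay in an annotated gene for 45.5% of absent and 44.8% of shared peaks in replicate 1 and for 48.5% and 44.9% in replicate 2, a mean difference of 2.17 points (exact permutation test, p = 0.333, n = 2 a side). Within 1000 bp of a transcript start it was 5.67% against 8.33% and 7.41% against 9.02%, lower in absent peaks by 2.14 points (exact permutation test, p = 0.333, n = 2 a side). Among peaks of fold 10 or more the promoter difference turned to 1.17 points higher in absent peaks.

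Few genes held more than 1 member. Absent regions overlapped 1175 of 53843 annotated genes (2.18%), and 1032 of these held a single one. The most, 29, fell in Gm20388, an annotation of 4435 kb on chromosome 8 that runs across many other genes, so these cannot be assigned to it. Ptprd, which encodes a receptor tyrosine phosphatase of neuronal contacts, held 9 over 2271 kb, beside 14 shared regions and 53 KO_IP_RNaseR- regions. Both WT classes were thus present in the gene, and no absent region in it was called in both replicates.

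The transcripts C230088H06Rik and Gm26573, March1 and Galntl6 (a family member of the sugar transferases) held 6 absent regions each. Then 3632454L22Rik, Zfp936 (a zinc finger gene), Focad (a focal adhesion protein) and Mid1 (a ubiquitin ligase on microtubules) held 4 each. The genes were ranked by these counts, and their shared regions varied: March1 and Galntl6 held 1 and 2, Focad and Zfp936 0, Mid1 1, 3632454L22Rik 3, C230088H06Rik 6 and Gm26573 10. All 10 genes also held regions of the KO_IP_RNaseR- lists at other places, from 2 in Focad to 116 in Gm20388.

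Long genes of neuronal adhesion and of common fragile sites, stretches prone to breakage when replication is slowed, held members more often per gene than protein-coding genes as a whole, as other long genes did. Of 40 neuronal adhesion and synapse genes 27 held an absent region (67.5%), and of 20 fragile site genes 15 did (75%), against 4.04% of 21755 protein-coding genes. These genes are long, with medians of 1050 kb and 1174 kb against 17.4 kb over all. Per length the densities were 1.52 and 1.32 absent regions per Mb of gene against 1.03 over all protein-coding genes, and for shared regions 1.36 and 0.578 against 0.831. Of the 230 protein-coding genes of 500 kb or more, 118 held an absent region (51.3%), at 1.26 per Mb, with 0.868 shared regions per Mb.

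Nrxn3, which encodes a presynaptic adhesion protein, held 3 absent regions, 1 of them called in both replicates (folds 4.96 and 8.06). Ctnna2, Csmd1, Cdh13, Cdh12, Cdh18, Wwox and Ctnna3 held 4 each, of which Ctnna2, Cdh12 and Wwox had no shared region. Sgcz, Csmd3 and Dlgap1 held 3 each. None of these 10 genes had a member called in both replicates.

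No absent region lay on the 13 fibroblast marker genes, which include the collagen genes Col1a1 and Col1a2 and the fibronectin gene Fn1, nor on 33 genes of the DNA damage response and R-loop resolution or 26 actin cytoskeleton genes. No shared region lay on them either, although KO_IP_RNaseR- regions were found in 11, 18 and 22 of them. The lists are short, at 0.395 Mb, 1.73 Mb and 2.24 Mb of gene, so few regions would fall there at the density of all genes. Peak lists of precipitated DNA do not measure expression, so the fibroblast label could not be checked on its markers. Of 26 exportin and importin genes 1 held an absent region (3.85%, close to the 4.04% of all protein-coding genes). It was Xpo5, in 1 replicate. Xpo4 itself held no absent and no shared region, beside 2 KO_IP_RNaseR- regions.

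The chromosomes differed widely in WT regions. Absent regions ran from 0.159 per Mb on chromosome X to 2.31 per Mb on chromosome 8, with 1.1 over all, and shared regions from 0.104 to 2.17. KO_IP_RNaseR- regions ran from 7.11 per Mb on X to 25.7 per Mb on 17. The share of WT regions that were absent was highest on chromosome 10, at 67.5% (243 of 360). It held there in both lists, with 68.2% of replicate 1 and 61.8% of replicate 2 peaks, the highest of the 20 chromosomes in each. The lowest share was on chromosome 4, at 44.8% (217 of 484), with 45.2% and 38.4% of peaks. By peaks it was the lowest in neither list. The lowest were chromosome 1 in replicate 1 (44.2%) and chromosome 9 in replicate 2 (35.6%). On chromosome 18 the lists parted, at 65.5% and 36.9%.

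**Figure D5:**
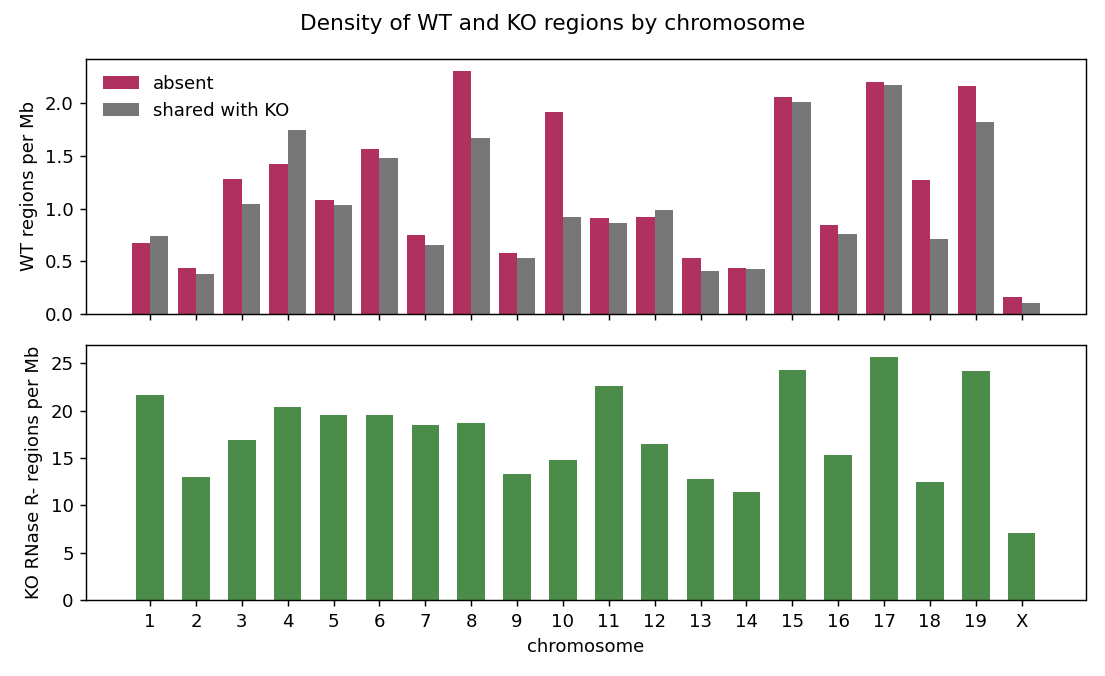
Regions per Mb of sequenced chromosome (vertical axes) for chromosomes 1 to 19 and X (horizontal axis). The upper bars are WT_IP_RNaseR- regions, absent in red and shared with a KO list in grey, and the lower bars are merged KO_IP_RNaseR- regions. Chromosome 10 has 1.91 absent against 0.921 shared regions per Mb, and chromosome 8 has the highest density of absent regions, 2.31 per Mb.

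Locally, the densest 1 Mb window held 13 absent regions (chr8:123000001-124000000), 2 of them called in both replicates, with 10 shared and 52 KO_IP_RNaseR- regions. That window holds 41 of the 179 annotated copies of the small ribosomal RNA gene named n-R5s on these chromosomes. Of the 41, 3 overlapped an absent and 8 a shared region. Over all annotated genes, 2.18% overlapped an absent and 1.91% a shared region. The window was picked for its number of absent regions, so counts inside it are not independent of that choice. The member at n-R5s124 had folds of 5.81 and 5.13 and a median of 47 copies for its 31-mers. The window chr16:3000001-4000000, at the centromeric end of the chromosome, held 8 absent regions with 3 in both replicates, beside 3 shared ones.

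KO_IP_RNaseR- regions numbered 17.1 per Mb over these chromosomes, and no gap was measured for other places of the genome. The gap from an absent region to the nearest peak of any KO list was 16.4 kb in the median, and 1021 regions (36.4%) lay within 10000 bp and 188 (6.70%) within 1000 bp of one. The members nearest to the limit of the rule lay 1, 6 and 8 bp from a KO peak (chromosomes 19, 3 and 17, folds 6.72, 4.73 and 6.72). The removed regions nearest to it overlapped another list by 1, 2 and 2 bp (chromosomes 2, 6 and 7, folds 5.41, 7.30 and 5.98). The folds of these named neighbours overlapped in range, and folds were not compared for other regions near the limit. Of 2506 removed regions, 234 were covered over less than 50% of their length.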

How the data were processed

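Peak lists of the 8 immunoprecipitated libraries were used, and the 8 input samples of the series' 16 were not. The authors cut genomic DNA with 4 restriction enzymes, precipitated hybrids with S9.6, aligned paired reads to mm10 with Bowtie2, discarded duplicates and reads that fit several places, and called peaks with MACS2 at q 0.001 in each replicate (the submitters' processing notes name MACS2, SAMtools 1.1 and mm10); the control library is not given in the sources used here. The deposited fold enrichment is a ratio with 1 added to both terms, the deposited p and q values are −log10 values, and the deposited score was not used. Peak names in the list of WT_IP_RNaseR- replicate 1 carry the tag of replicate 2, while the values differ.

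Positions, summits and names were used as deposited. Whole summit heights and expected levels were recovered from fold and p under a Poisson distribution for all 3822 and 2117 WT_IP_RNaseR- peaks on chromosomes 1 to 19 and X, the code having been tested on simulated data. The lists hold no read totals, and those the study gives were not used. Background levels were 0.479 and 0.489 fragments in WT_IP_RNaseR- and 0.843 and 0.896 in KO_IP_RNaseR-, so the KO libraries were deeper at background; that ratio is not the ratio of sequenced reads. Each list was called on its own, so peak numbers depend on depth, and peaks in repeats rest on reads that tell the copies apart. Genes are from GENCODE (GRCm38) and sequence from RefSeq GRCm38, the build of the files. Merging and overlap gave the results of bedtools 2.31.1 on simulated intervals. Per-list values were compared by a two-sided exact permutation test (scipy), with Benjamini-Hochberg adjustment over 6 measures. Regions and genes named are the 10 highest in both replicates, the 5 highest in 1 replicate, the 10 genes with most members, listed genes with a member in both replicates or at least 3 members, promoter genes of members in both replicates, Xpo4 and the 3 regions on each side of the overlap limit; some genes that meet this rule are not reported here. The members and the lists were chosen with earlier results of these data known. Alternatives covered the overlap, q, fold and expected level limits, the RNase R+ lists and leaving out each list.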

Additional observations from a re-analysis of the deposited data

How the results depend on the processing

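The number of absent regions, 2806, was 1580 with WT peaks of −log10 q of at least 5, 99 with WT peaks of fold 10 or more, and 939 to 3283 when 1 list was left out (939 without WT_IP_RNaseR- replicate 1, 3283 without KO_IP_RNaseR- replicate 2). The number called in both replicates, 135, was 82 at that q limit, 10 at that fold limit, 204 with the RNase R+ lists not used, and 135 to 170 when a KO or RNase R+ list was left out. It has no value with 1 WT list. The direction of the 6 differences between absent and shared peaks held under every alternative run except 1: with WT peaks of fold 10 or more the promoter difference was 1.17 points, up from -2.14 (p = 0.667, exact permutation test, n = 2 a side). The cause was not tested. Sizes moved by over 1.5 times in some. With WT peaks of fold 10 or more, GC differed by -5.83 points, cut sites by 2 and peaks found in the other replicate by -36.2 points. With WT peaks of low expected level, the last was -15.0 and promoters -1.26. With the RNase R+ lists not used, promoters differed by -0.241 (p = 1, exact permutation test), GC by -0.833 and genes by 3.29. The gene difference ran from 0.85 (without WT_IP_RNaseR- replicate 2) to 3.47 (without WT_IP_RNaseR- replicate 1), with 1.07 without KO_IP_RNaseR- replicate 1 and 1.41 without KO_IP_RNaseR+ replicate 2, and was 3.71 for protein-coding genes alone. GC differed by -2 without KO_IP_RNaseR- replicate 2. With the WT library as a replicate block (exact sign-flip of within-library differences) the differences were the same by construction: -23.2 for peaks found in the other replicate, -1.33 for GC, 2.17 for genes, -2.14 for promoters, 14.6 for single-copy 31-mers and 1 for cut sites, each with p = 0.5, the smallest that 2 pairs allow. Low heights, a median of 9 or 10 fragments, limit most single regions, and leaving out WT replicate 1 moved the size of the set the most among lists.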
